A study of Rattus norvegicus with 6 samples.

Results

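The genes of the neurotrophins and their receptors were examined in crushed rat sciatic nerve. Members were the rows of the deposited gene table whose symbol was Bdnf, Ntf3, Ntf4, Ngfr, Ntrk2, Ntrk3 or Sort1, which gave 7 of its 30957 genes, each with 1 identifier. Nerves of 3 groups were sequenced from Sprague-Dawley rats about 1 month of age, with 2 rats a group. Control nerves were labelled normal, and by the study's methods the control rats had the nerve exposed without being clamped. The D4 and D7 nerves were taken 4 and 7 days after the middle of the left sciatic nerve had been clamped with hemostatic forceps. Neither the labels nor the methods name a transgene or any treatment beyond the operation and its anaesthetic. The libraries are called a and b within each group, as in the labels, and these letters do not pair rats across groups.

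Neurotrophins are small secreted growth factors that act on neurons and glia. BDNF and NT-4 (genes Bdnf and Ntf4) signal through the receptor tyrosine kinase TrkB (Ntrk2), and NT-3 (Ntf3) signals mainly through TrkC (Ntrk3). Every neurotrophin also binds p75NTR (Ngfr), and the uncleaved proneurotrophins bind p75NTR together with sortilin (Sort1). When a peripheral nerve is crushed, the axons beyond the lesion degenerate, and Schwann cells leave the myelinating state for a repair state in which p75NTR is a classical marker. Most axonal proteins are made in cell bodies outside the nerve, so that nerve RNA comes mostly from Schwann cells, fibroblasts, vessels and immune cells.

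Because Bdnf is read from several alternative first exons, the windows of 250 bases before its annotated starts were searched for short motifs of factors known to act after injury or neuronal activity. RefSeq (build GRCr8, which is not the build of the deposited files) gave windows for 4 of the 7 members, namely 6 for Bdnf, 3 for Ntf3, 1 for Ntf4 and 1 for Sort1. The motifs, searched on both strands, were TGANTCA (AP-1), TGACGTCA (the full cyclic AMP response element, CRE), ACGTCA (which lies within the full CRE) and CACGTG (E-box). Among all 33360 distinct windows of that length, 6.35% held the AP-1 letters, 1.59% the full CRE, 6.95% the shorter CRE letters and 5.61% the E-box. These shares are for 1 motif each, and the share of windows with a match to any of the motifs was not computed. Some member windows overlap, namely Ntf3 starts 1 and 2 and Bdnf starts 5 and 6. Of the 11 member windows, 2 held a match, both at Bdnf. They are printed 5′ to 3′ on the plus strand with the match in capitals:
Bdnf start 3, GRCr8 chr3:116621721-116621970: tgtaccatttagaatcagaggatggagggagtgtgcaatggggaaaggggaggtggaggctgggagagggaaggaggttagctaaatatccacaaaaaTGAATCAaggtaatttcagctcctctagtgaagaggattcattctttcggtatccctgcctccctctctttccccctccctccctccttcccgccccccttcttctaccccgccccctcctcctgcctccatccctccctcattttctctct
Bdnf start 4, GRCr8 chr3:116637608-116637857: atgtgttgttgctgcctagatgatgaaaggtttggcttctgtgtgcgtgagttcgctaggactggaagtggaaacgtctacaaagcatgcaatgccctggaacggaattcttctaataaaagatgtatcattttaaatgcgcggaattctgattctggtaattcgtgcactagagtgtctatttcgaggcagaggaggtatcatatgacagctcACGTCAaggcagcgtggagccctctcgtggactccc
The AP-1 letters began 152 bases before start 3 (position -152), and the shorter CRE letters began at position -36 of start 4. A match is a description of the letters only. The deposited counts are per gene, so the starts of Bdnf could not be told apart, and no value below belongs to either window.

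Depth was 18727255 to 25350886 fragments a library in the gene table. All values named CPM are counts scaled to library size with TMM factors, a correction for differences in RNA composition between libraries. A gene was called changed where edgeR's quasi-likelihood test over all genes gave a Benjamini-Hochberg adjusted p under 0.05 and a change of at least 2-fold. By that rule 21.9% of the 15195 tested genes were called at D4 against control (11.2% higher and 10.7% lower), 18.8% at D7 against control (9.83% higher and 9.02% lower) and 2.18% at D7 against D4. Without TMM factors, the share of calls that were higher moved from 51.2% to 69.3% at D4 and from 52.1% to 70.4% at D7, and the median log2 change of all genes moved from -0.04 to 0.25 and from 0.01 to 0.31. Of the members 6 were tested, and Ntf4 had too few counts. At D4, 2 members were called higher (Ngfr and Bdnf) and 3 lower (Ntrk2, Ntrk3 and Ntf3), with a median log2 change of -1.13 over the 6. At D7, 2 were called higher (Ngfr and Bdnf) and 1 lower (Ntrk2), with a median of -0.83. With so few members, the counts are given beside the background shares as a description only.

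The tissue labels were checked against marker lists, and these values stand beside the member results below. The 6 myelinating Schwann cell genes were all called lower at D4 (median log2 change -6.18) and 5 of them at D7 (-2.69), with a summed level of 103400 and 70820 CPM in control, 2749 and 3224 in D4 and 15710 and 9557 in D7. Of the 6 genes of injury-induced Schwann cells, 5 (Sox2, Shh, Gdnf, Runx2 and Jun) were higher on each day, and their sum went from 122 and 123 CPM in control to 885 and 968 in D4 and 690 and 699 in D7. All 6 macrophage genes were higher at D4 and 5 at D7, with sums of 154 to 180 CPM in control and 391 to 609 after crush. The fibroblast list had 1 of 5 genes (Col1a1) lower at D7 and none called at D4 by edgeR (3 at an unadjusted p under 0.05, 0 by DESeq2 and by the exact test). Of the perineurial list 2 of 3 tested genes were lower on each day (Cldn1 with Itgb4 at D4 and with Slc2a1 at D7), the gene left untested, Lypd2, being at 0 in every library, and of the endothelial list 2 of 4 genes were lower at D4 (Kdr and Tek) and 3 at D7 (with Cdh5). Mast cell genes had 1 of 4 (Kit) higher at D4. The list median there was -0.90, and its other genes were lower in both D4 libraries than in both controls. Skeletal muscle genes had 1 of 4 (Myh7) lower on each day, while its other genes overlapped control. The muscle medians were 0.17 at D4 and -2.24 at D7. Neuronal genes had 1 of 3 (Snap25) lower at D7. Tubb3 was higher there than in control (33.5 and 27.4 against 26.3 and 21.8 CPM) and Syt1 lower, neither called. The neuronal nuclear gene Rbfox3 was at or below 0.0515 CPM in every library.

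A pair of libraries stood apart in their marker genes. Control b held far more smooth muscle RNA than control a, with Myh11 at 2622 against 298 CPM and Acta2 at 1722 against 241 CPM. The summed list of pericyte and smooth muscle genes was 5100 CPM in control b and 506 to 987 CPM in the other 5 libraries, and 1 of its 5 genes, Rgs5, was called lower on each day. The pericyte genes Rgs5 and Pdgfrb differed less, by 1.69-fold and 1.23-fold between the control libraries. D7 a held almost no adipocyte RNA, with a summed list of 4.41 CPM against 351 in D7 b, 252 and 123 in D4 and 1098 and 888 in control. Of the 4 adipocyte genes 0 were called by edgeR, 0 by DESeq2 and 0 at an unadjusted p under 0.05.

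Ngfr, which encodes p75NTR (ENSRNOG00000005392, Rnor_6.0 chr10:83389847-83408061), rose most among the members. Its counts were 445 and 346 in the control libraries, 45418 and 53579 in D4, and 23610 and 21250 in D7. The groups did not overlap, and each D4 library stood above each D7 library. On the CPM scale these were 22.9 and 20.9 in control, 1864 and 1979 in D4, and 1109 and 1051 in D7. The fitted change was 87.7-fold at D4 (log2 6.46 ± 0.13 SE, n = 2 rats a group, edgeR adjusted p = 5.78e-05) and 49.3-fold at D7 (log2 5.62 ± 0.13, adjusted p = 8.93e-05). Between the days Ngfr was 1.78-fold lower at D7, with a log2 difference of -0.83 ± 0.10 and an edgeR adjusted p of 0.0196, which is under the 2-fold limit and therefore not a call. The summed injury-induced Schwann list ran in the same order, lowest in control and highest in D4. The part of cell numbers in the Ngfr level was not tested, and in these bulk samples a change in cells of a type and a change in RNA per cell cannot be told apart.

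Sort1 (ENSRNOG00000031814, Rnor_6.0 chr2:211078334-211156312) encodes sortilin, a sorting receptor that partners p75NTR in binding proneurotrophins. It had counts of 7282 and 7020 in control, 4934 and 5667 in D4, and 5314 and 4998 in D7. The corresponding levels were 375 and 423 CPM in control, 203 and 209 CPM in D4, and 249.5 and 247 CPM in D7, so that both injured groups lay below both control libraries. The difference was under 2-fold on each day. It was -0.95 ± 0.10 on the log2 scale at D4 (edgeR adjusted p = 0.000792) and -0.68 ± 0.10 at D7 (adjusted p = 0.00351), so that Sort1 met the p limit and was not called. Leaving out control a brought D4 to -1.04, past the 2-fold limit.

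The ligand gene Bdnf (ENSRNOG00000047466, Rnor_6.0 chr3:100768637-100819210) rose from near the detection limit. It had 1 and 12 counts in the control libraries, 88 and 67 in D4, and 94 and 58 in D7. All 4 injured libraries lay above both controls, and the 2 days overlapped each other. Exact Poisson 95% intervals, which cover counting error only, were 0.0253 to 5.57 counts for control a and 6.20 to 21.0 for control b, so the control libraries differed from each other beyond counting error. In CPM, Bdnf was 0.0515 and 0.724 in control, 3.61 and 2.48 in D4, and 4.41 and 2.87 in D7. The fitted change was log2 3.02 ± 0.80 at D4 (8.09-fold, edgeR adjusted p = 0.0256) and 3.28 ± 0.80 at D7 (9.70-fold, adjusted p = 0.0226), with no call between the days (0.26 ± 0.64, adjusted p = 0.842). Bdnf passed the filter on low counts through its injured libraries. Its size rests on the control library used, since the D4 change was 5.74 without control b and 2.06 without control a, and the D7 change was 5.997 and 2.32. Without D4 a or D4 b the D4 call was lost (adjusted p = 0.112 and 0.0707), and without D4 a, D4 b or D7 a the D7 call was lost (adjusted p = 0.0528, 0.0507 and 0.0778), as it was in the fit of D7 and control alone (0.0504).

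Ntf3 (ENSRNOG00000019716, Rnor_6.0 chr4:158636884-158705886), the gene of NT-3, fell at D4. Its counts were 50 and 104 in control, 19 and 19 in D4, and 4 and 26 in D7. The injured libraries all lay below both controls, and D7 a was the lowest of the 6. In CPM they were 2.58 and 6.27 in control, 0.780 and 0.702 in D4, and 0.188 and 1.29 in D7. The fitted D4 change was -2.56 ± 0.80 on the log2 scale (5.91-fold lower, edgeR adjusted p = 0.0427). The D7 value was of the same size, -2.58 ± 0.81, with an adjusted p of 0.0502, and was not called. Ntf3 was 2.44-fold higher in control b, the library with the most smooth muscle RNA, than in control a, and the library with the least Ntf3, D7 a, also held the least smooth muscle and adipocyte RNA. The part of these cells in the result was not tested. Without control b the D4 change was -1.79 with an adjusted p of 0.178, so the call was lost, and it was lost as well without D4 a (0.165), without D4 b (0.184) and without TMM factors (0.0583). The D7 value was -1.74 without D7 a and -1.81 without control b, neither called, and was called at -4.51 without D7 b and at -3.09 without control a.

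Ntf4 (ENSRNOG00000020783, Rnor_6.0 chr1:101405314-101408145), which encodes NT-4, was barely detected. It had 0 and 5 counts in control, 3 and 4 in D4, and 5 and 3 in D7, 20 fragments in all. A count of 0 in control a allows up to 3.69 by the exact Poisson interval, and the intervals of all 6 libraries overlapped, so the libraries could not be told apart at this depth. The gene did not pass the filter on low counts and was not tested.

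**Figure D1:**
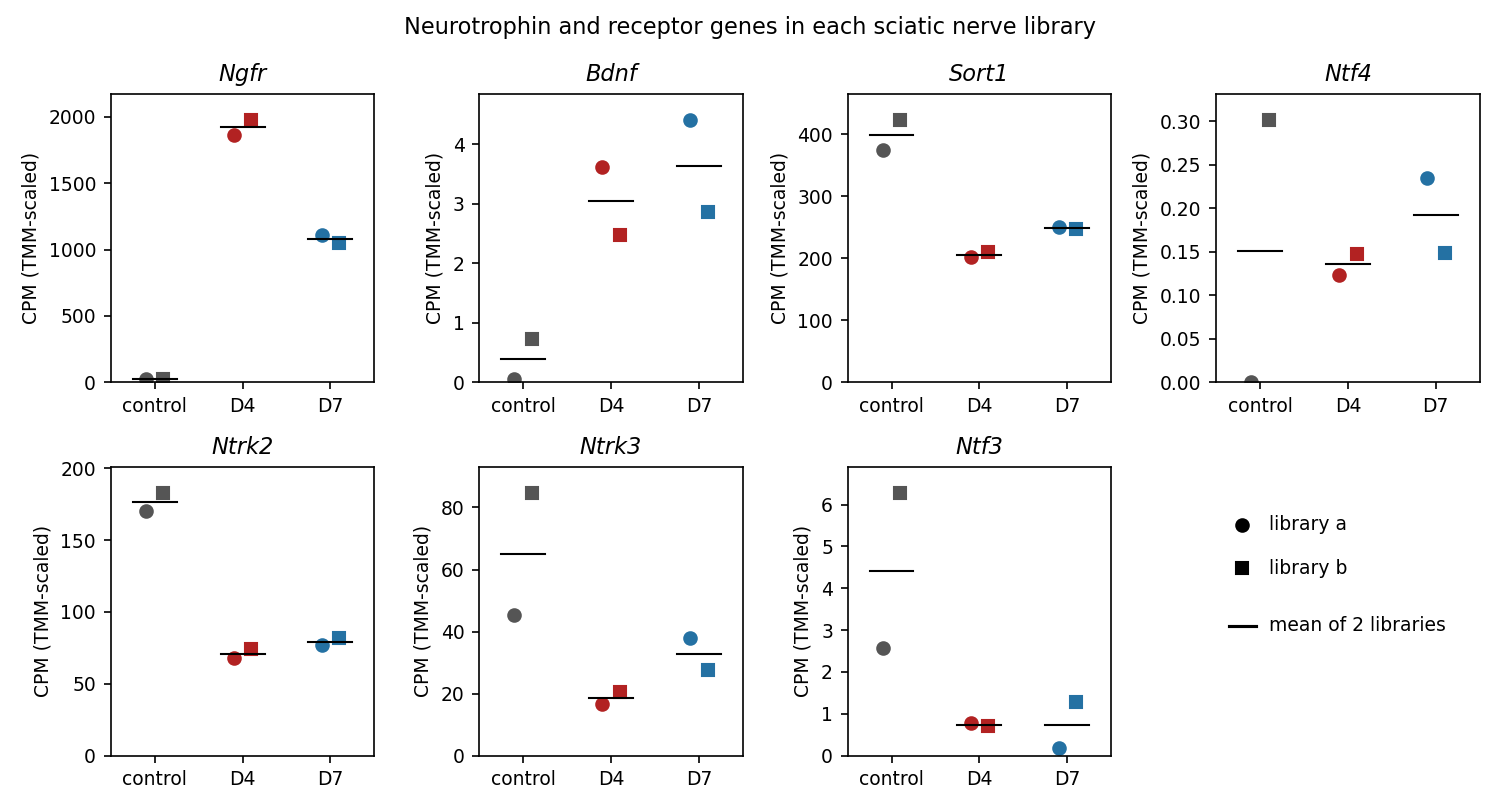
TMM-scaled CPM of the 7 members (vertical axes from 0, one scale a gene) in control, D4 and D7 nerves, with circles for library a, squares for library b and bars for the mean of 2 libraries. Ngfr went from 22.9 and 20.9 CPM in control to 1864 and 1979 in D4, Ntrk2 from 171 and 183 to 68.0 and 74.1, and in Ntf3 and Ntrk3 control b stood well above control a.

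Of the Trk receptors, Ntrk2, the gene of TrkB (ENSRNOG00000018839, Rnor_6.0 chr17:5933729-6244676), fell on both days with little spread. It had 3310 and 3029 counts in control, 1657 and 2005 in D4, and 1639 and 1652 in D7. The corresponding levels were 171 and 183 CPM in control, 68.0 and 74.1 in D4, and 77.0 and 81.7 in D7, so control lay apart from both injured groups. The change was 2.49-fold at D4 (log2 -1.31 ± 0.10, edgeR adjusted p = 0.000274) and 2.23-fold at D7 (log2 -1.15 ± 0.10, adjusted p = 0.000642), and the days did not differ by the test (0.16 ± 0.09, adjusted p = 0.355). The D7 value was -0.86 without TMM factors, under the 2-fold limit. Ntrk2 gives both a full-length receptor and truncated receptors without the kinase, and counts per gene cannot separate them. The level in control b was 1.07 times that in control a, unlike that of Ntf3.

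Ntrk3, the gene of TrkC (ENSRNOG00000018674, Rnor_6.0 chr1:139890560-140262503), fell at D4. Its counts were 879 and 1403 in control, 402 and 552 in D4, and 808 and 560 in D7. In CPM the libraries stood at 45.3 and 84.6 in control, 16.5 and 20.4 in D4, and 37.9 and 27.7 in D7. D4 was the lowest group, and D7 lay between D4 and control without overlap. The D4 change was -1.81 ± 0.32 on the log2 scale (3.51-fold lower, edgeR adjusted p = 0.00612). At D7 the value was -0.98 ± 0.31 with an adjusted p of 0.0528, not called, and the difference between the days, 0.83 ± 0.32 higher at D7, had an adjusted p of 0.179. Control b held 1.87 times the Ntrk3 level of control a, and the part of its smooth muscle RNA in this was not tested. Without control b the D4 change was -1.30 and still called (adjusted p = 0.0102), and the D7 value was -0.47 (adjusted p = 0.184). Without control a the D7 value was -1.37 and called (adjusted p = 0.0104), and without D4 a the D4 call was lost (-1.67, adjusted p = 0.0516).

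**Figure D2:**
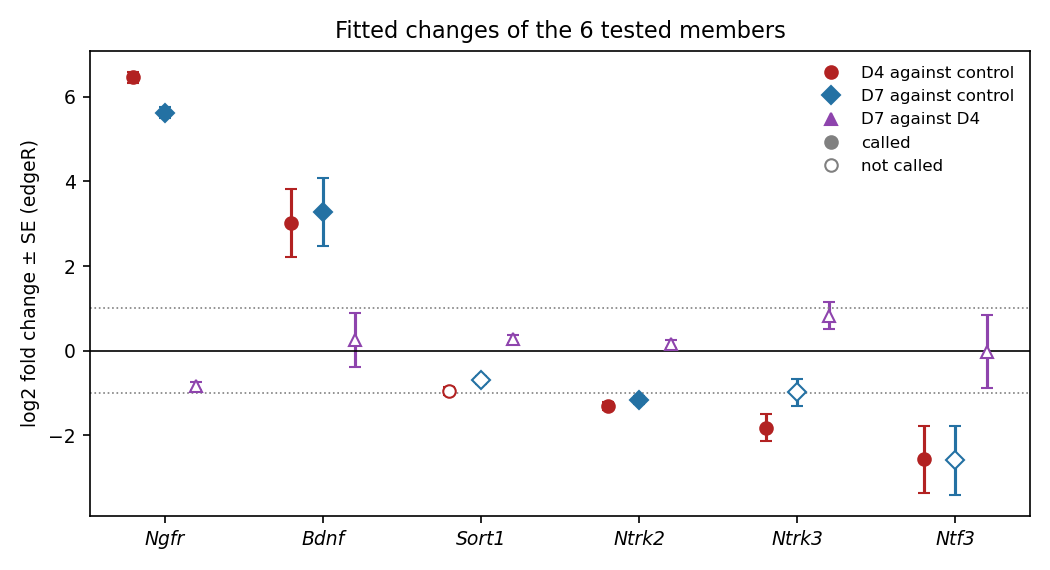
Fitted log2 fold changes (vertical axis) with SE bars for the 6 tested members at D4 against control (circles), D7 against control (diamonds) and D7 against D4 (triangles), filled where called and open where not; dotted lines mark 2-fold. Ngfr stood at 6.46 and 5.62, Bdnf and Ntf3 had wide bars (SE 0.80 for each at D4), and no triangle was filled.

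Between D7 and D4, edgeR called 0 members, against 2.18% of all tested genes, and DESeq2 and the exact test also called 0. At an unadjusted p under 0.05 there were 3, namely Ngfr, Ntrk3 and Sort1. The direction was lower at D7 for Ngfr and higher for Ntrk3 and Sort1, in each case towards control.

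Levels of different genes were compared per length, on the deposited FPKM scale (fragments per kilobase of transcript, scaled to library size). The lengths implied by the deposited values were 6224 nt for Bdnf, 1859 for Ntf3, 3489 for Ntrk3 and 13143 for Ntrk2. The order of these genes depends on those lengths, since Ntrk2 had more fragments than Ntrk3 in every library. In control nerve Sort1 was highest at 52.2 ± 5.4 FPKM (SD, n = 2), followed by Ntrk3 at 16.3 ± 7.2 and Ntrk2 at 11.7 ± 0.78, whose ranges overlapped. Ngfr (5.88 ± 0.29) and Ntf3 (2.09 ± 1.26) came next, and Ntf4 (0.101 ± 0.142) and Bdnf (0.0550 ± 0.0676) were last and overlapped. At D4 Ngfr led with 630.0 ± 27.5 FPKM, above Sort1 (32.8 ± 0.81), while Ntrk2 (5.77 ± 0.36) and Ntrk3 (5.64 ± 0.85) overlapped. Bdnf (0.522 ± 0.137) and Ntf3 (0.425 ± 0.031) also overlapped at D4, above Ntf4 (0.109 ± 0.014). The order at D7 was Ngfr (355.6 ± 9.8), Sort1 (39.8 ± 0.15), Ntrk3 (10.1 ± 2.1), Ntrk2 (6.47 ± 0.34), Bdnf (0.626 ± 0.182), Ntf3 (0.427 ± 0.452) and Ntf4 (0.155 ± 0.048), and of these neighbours Bdnf and Ntf3, and Ntf3 and Ntf4, overlapped.

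**Figure D3:**
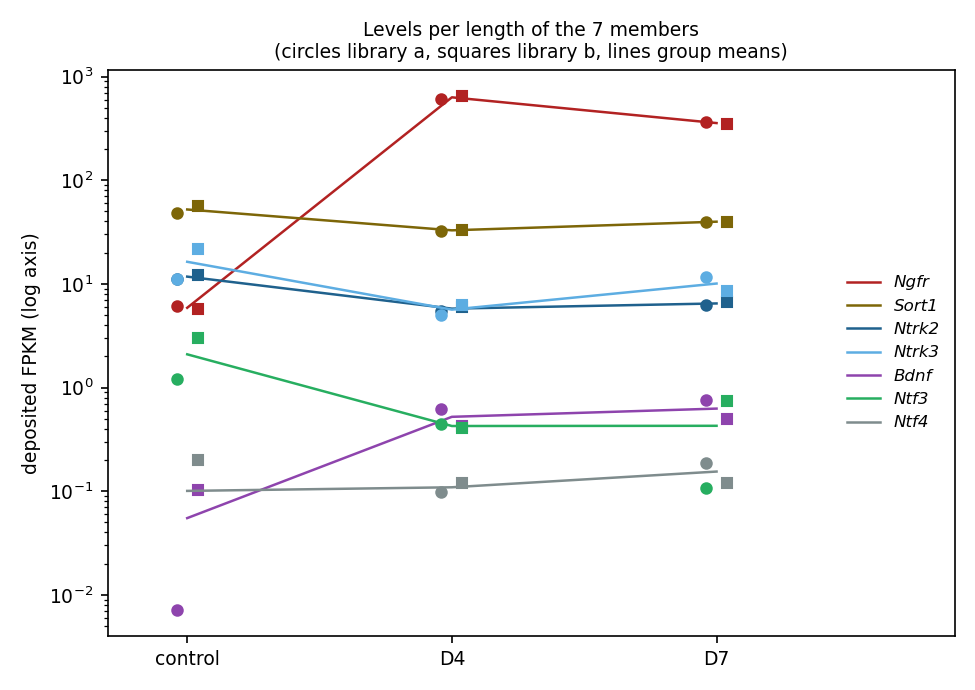
Deposited FPKM (log axis) of the 7 members by group, with circles for library a, squares for library b and lines through the group means; the 0 of Ntf4 in control a is not drawn. Ngfr stood below Sort1, Ntrk3 and Ntrk2 at 5.88 FPKM in control and above all of them at 630.0 in D4, and the points of Bdnf and Ntf3, apart in control, overlapped at D4 and D7.

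Ratios of 2 genes within a library do not depend on how libraries are scaled. Ngfr to Ntrk2 was 0.543 and 0.461 in the control libraries, 111 and 108 in D4, and 58.2 and 51.95 in D7, in FPKM over FPKM. Ngfr to Sort1 was 0.126 and 0.101 in control, 18.9 and 19.4 in D4, and 9.14 and 8.74 in D7. The p75NTR gene thus went from below to above both partners in every injured library. Ntf3 to Bdnf was 167 and 29.0 in control, 0.723 and 0.950 in D4, and 0.143 and 1.501 in D7. Per length, NT-3 RNA thus exceeded BDNF RNA in both controls and in D7 b alone of the injured libraries. In fragments, D7 b held 26 of Ntf3 and 58 of Bdnf. Ntrk3 to Ntrk2 was 1.001 and 1.75 in control, 0.914 and 1.04 in D4, and 1.86 and 1.28 in D7, with control overlapping D4 and D7. Sort1 to Ntrk2 was 4.32 and 4.55 in control, 5.85 and 5.55 in D4, and 6.37 and 5.94 in D7.

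Ntf3 and Ntrk3, each higher in control b than in control a, are plotted beside the smooth muscle genes Myh11 and Acta2.

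**Figure D4:**
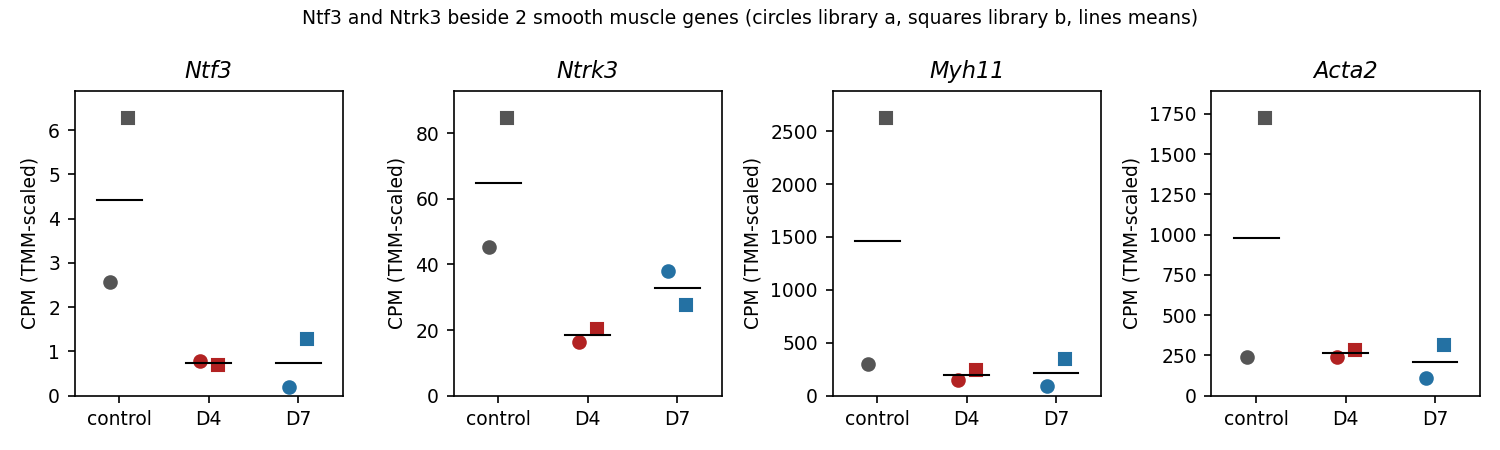
TMM-scaled CPM (vertical axes from 0) of Ntf3, Ntrk3, Myh11 and Acta2 in each library, with circles for library a, squares for library b and bars for the mean of 2 libraries. Control b was the highest library in all 4 panels, at 2622 CPM of Myh11 against 298 in control a, while Ntf3 and Ntrk3 in control a (2.58 and 45.3 CPM) also stood above every injured library.

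Other genes of neurotrophin signalling were taken from 5 lists of 92 genes, of which 85 were found in the table and 82 were tested. At D4 17 were called higher and 10 lower, and at D7 14 higher and 8 lower, which is 32.9% and 26.8% of those tested beside 21.9% and 18.8% of all genes, with median log2 changes of 0.04 and 0.09 beside -0.04 and 0.01 over all genes. Between the days 4 were higher and 1 lower at D7, which is 6.1% of those tested beside 2.18% of all genes. These lists were drawn up with earlier results of the data known, and they are described by count only.

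Among the 15 tested genes that process the ligands, 7 were higher and 3 lower at D4 (66.7%, median log2 change 1.17), 5 higher and 2 lower at D7 (46.7%, median 0.74), and 1 lower between the days (6.67%). The shares for all genes were 21.9%, 18.8% and 2.18%, with median changes of -0.04 at D4 and 0.01 at D7. Pcsk1, a prohormone convertase, had 6 and 25 counts in control, 2419 and 3102 in D4, and 932 and 1136 in D7, and rose by log2 6.93 ± 0.48 at D4 (edgeR adjusted p = 0.000242) and 5.83 ± 0.47 at D7 (0.000626). The size of the Pcsk1 change rests on the control library used, being 6.14 at D4 and 5.045 at D7 without control a and 8.41 and 7.31 without control b, called in each case. The convertases Pcsk6 (1789 and 1349 counts in control, 612 and 557 in D4, 224 and 396 in D7) and Pcsk5 (2023 and 1387, 1072 and 1215, 516 and 643) fell, with log2 changes of -1.93 and -1.08 at D4 and of -2.53 and -1.75 at D7, although the D4 value of Pcsk5 was -0.79 without TMM factors and -0.91 without control a, neither called. Mmp9, a secreted protease able to cleave proBDNF, had 4 and 0 counts in control, 76 and 134 in D4, and 23 and 82 in D7. Like Pcsk1, it passed the filter on low counts through its injured libraries. Its fitted log2 changes of 5.13 ± 1.06 at D4 and 4.47 ± 1.08 at D7 were called (adjusted p = 0.0105 and 0.0215), although the D4 call was lost without D4 b (4.76) and the D7 call without control b (3.60) or D7 b (3.23). Without control a, which left a control of 0 counts, the fitted values were 9.47 and 8.81, which depend on the prior count. Plaur, the receptor of urokinase, rose by 2.23 ± 0.21 at D4 and 1.78 ± 0.21 at D7. The plasminogen activators Plat (3.53-fold at D4 and 3.24-fold at D7) and Plau (4.43-fold and 2.45-fold), named after their values were seen, complete the genes called higher at D7. The convertase Furin, named in the same way, was called higher at D4 (log2 1.17 ± 0.09, edgeR adjusted p = 0.000348). It had 1723 and 1625 counts in control and 5146 and 5660 in D4, and its D7 value of 0.84 ± 0.09 was under 2-fold. Serpine2, an inhibitor of serine proteases, rose 5.76-fold at D4 (4553 and 3221 counts in control, 29703 and 33862 in D4). It fell from D4 to D7 (to 6663 and 8161 counts, a log2 change of -1.79 ± 0.16, edgeR adjusted p = 0.0117). That change was -1.80 without D4 a and -1.77 without D4 b. In those fits no gene of the whole table was called between the days, so they cannot weigh the call of a single gene. Plg, the plasminogen gene, had 53 and 68 counts in control, 21 and 15 in D4, and 55 and 19 in D7, and was called lower at D4 (-2.26 ± 0.57, adjusted p = 0.0212), a call lost without control b (-1.95), D4 a (-2.61) or D4 b (-1.98).

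Of the 22 tested co-receptors, cleavage enzymes and adaptors of p75NTR, 4 were higher and 1 lower at D4 (median 0.03), 4 higher and 2 lower at D7 (0.08), and 1 higher between the days. The shares called, 22.7%, 27.3% and 4.55%, stand beside 21.9%, 18.8% and 2.18% of all genes. Sorcs2, a relative of sortilin that also binds proneurotrophins, rose 3.03-fold at D4 (2374 and 2130 counts in control, 8500 and 11148 in D4) and 2.91-fold at D7 (8263 and 6906). Sorcs1, of the same receptor family, had 7053 and 4560 counts in control, 1406 and 2157 in D4, and 3629 and 2021 in D7, and fell on both days, with log2 changes of -2.22 ± 0.30 at D4 (edgeR adjusted p = 0.00230) and -1.24 ± 0.30 at D7 (0.0206). The D7 call of Sorcs1 was lost without TMM factors (-0.94), without control a (-1.03) and without D7 b (-0.91). Tnfrsf19, known as TROY, which can take the place of p75NTR in the Nogo receptor complex, rose 3.82-fold at D4 and 5.04-fold at D7 (236 and 235 counts in control, 935 and 1681 in D4, 1554 and 1207 in D7). Arhgdia, whose protein p75NTR binds, rose by 1.26 ± 0.15 at D4 and stood at 0.66 ± 0.15 at D7, under 2-fold. The remaining named genes of that complex were called at D7. Lingo1 (48 and 52 counts in control, 63 and 84 in D4, 315 and 127 in D7) was higher by 1.91 ± 0.44 (adjusted p = 0.0180), a call lost without either control library (1.75 without a and 2.09 without b), and 1.195 without D7 a. Rtn4r, the Nogo receptor (78 and 108, 80 and 125, 27 and 40), was lower, with a log2 change of -1.69 ± 0.39 (adjusted p = 0.0179), a call lost without control b (-1.31) or D7 a (-1.38). Their D4 values were 0.03 ± 0.44 and -0.41 ± 0.36, not called. The other called genes of this list, named after their values were seen, were Nradd, a relative of p75NTR that was higher at D4 by 1.04 ± 0.27 (a call lost without control b, D4 a or D4 b, at 0.68, 0.94 and 1.13), and Adam17, a protease that sheds p75NTR. Adam17 had 2411 and 2477 counts in control, 3869 and 4110 in D4, and 8197 and 6174 in D7. It was higher at D7 than in control by 1.34 ± 0.15 and than at D4 by 1.15 ± 0.15 (edgeR adjusted p = 0.0215). The difference between the days was 0.97 without D7 a, and that call was lost. It was 1.18 without D4 a and 1.12 without D4 b, fits in which no gene of the whole table was called between the days.

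Among 22 tested Trk adaptors, 3 were higher and 1 lower at D4 (median -0.01), 2 higher and 1 lower at D7 (-0.06), and edgeR called 0 between the days (7 at an unadjusted p under 0.05, 0 by DESeq2 and 1 by the exact test). The list had 18.2% called at D4 and 13.6% at D7, beside 21.9% and 18.8% of all genes, and with so few genes these shares are a description only. Shc3, a Shc adaptor best known from neurons, had 4 and 4 counts in control, 31 and 44 in D4, and 64 and 86 in D7. It rose by 2.67 ± 0.44 and 3.99 ± 0.43 (edgeR adjusted p = 0.00443 and 0.00130), and passed the filter on low counts through its injured libraries. Shc2, of the same family, rose 2.58-fold at D4 and 3.46-fold at D7. The docking protein gene Gab2 rose by 1.32 ± 0.09 at D4 and stood at 0.64 ± 0.09 at D7. Irs1, an insulin receptor substrate, fell on both days (-1.23 ± 0.16 at D4 and -1.44 ± 0.16 at D7), with the D4 value at -0.95 and not called without TMM factors.

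The 19 tested genes that limit or modulate Trk signalling had 1 higher and 4 lower at D4 (median -0.15), 1 higher and 3 lower at D7 (0.05), and 3 higher between the days. The shares called, 26.3% and 21.1%, lay near those of all genes (21.9% and 18.8%), and between the days 15.8% stood beside 2.18%. Slitrk1 and Slitrk5 encode neural membrane proteins with leucine-rich repeats outside the cell. Slitrk1 had 228 and 187 counts in control, 6 and 5 in D4, and 98 and 51 in D7, and fell on both days, with log2 changes of -5.71 ± 0.42 and -1.69 ± 0.32 (edgeR adjusted p = 0.000291 and 0.00903). Slitrk5, which is known to bind TrkB, had 173 and 113 counts in control, 24 and 22 in D4, and 206 and 151 in D7, and fell at D4 (-3.13 ± 0.28, adjusted p = 0.000505), with a D7 value of 0.12 ± 0.24 that was not called and turned sign to -0.06 without control b. Both were higher at D7 than at D4, by 4.02 ± 0.43 and 3.25 ± 0.28 (edgeR adjusted p = 0.0137 and 0.0117). Without D4 a or D4 b these values were 4.23 and 3.82 for Slitrk1 and 3.39 and 3.11 for Slitrk5. Those fits called no gene of the whole table between the days, so they cannot weigh either call. Slitrk2, named after its values were seen, was the remaining call between the days, 1.44 ± 0.19 higher at D7 (edgeR adjusted p = 0.0237). Its counts were 367 and 354 in control, 253 and 392 in D4, and 782 and 619 in D7. The call was lost without D7 a (1.29). The value was 1.22 without D4 a and 1.70 without D4 b, the fits that called no gene between the days. Dok4, a docking protein, fell on both days (-3.21 ± 0.15 at D4 and -2.46 ± 0.15 at D7). Spry4, an inhibitor of receptor tyrosine kinase signalling, fell as well (-1.60 ± 0.29 at D7 and -1.06 ± 0.29 at D4), the D4 value being not called without TMM factors (-0.77), with upper-quartile factors (-0.99) or without control b (-0.69), D4 a (-1.08) or D4 b (-1.03). The ubiquitin ligase gene Nedd4l rose by 1.74 ± 0.24 at D4 and by 1.02 ± 0.24 at D7, the latter call being lost without control a (0.86) or D7 b (0.76). The summed markers of myelinating Schwann cells had D7 between D4 and control. By their fitted changes Slitrk1, Dok4 and Nedd4l had it there too, while Slitrk5, Slitrk2 and Spry4 did not. The part of these cells in the values was not tested.

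**Figure D5:**
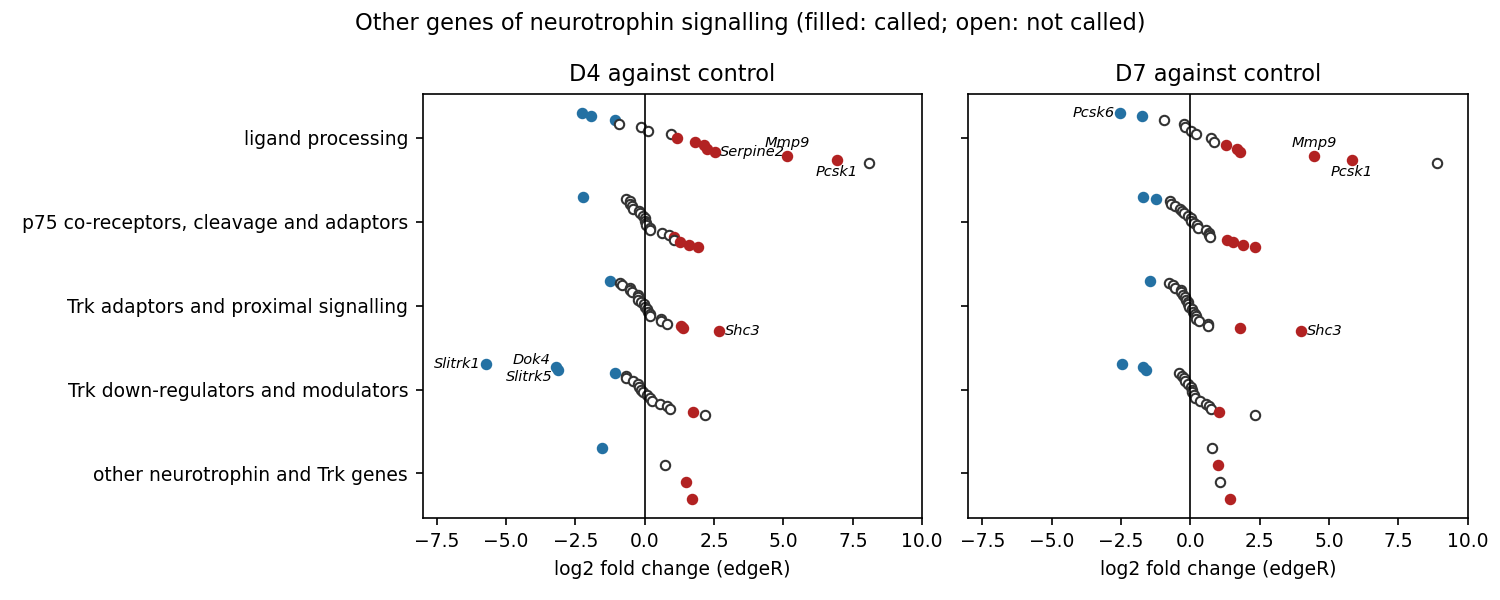
Fitted log2 fold changes (horizontal axes) of the 82 tested genes of 5 neurotrophin signalling lists at D4 and D7 against control, one row of points a list ordered by size, filled red where called higher, filled blue where called lower and open where not called. At D4 Pcsk1 stood at 6.93 and Slitrk1 at -5.71, and most points lay near 0; the open point at the far right is Mmp7, which had 0 counts in both control libraries.

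Mmp7, named here after its values were seen, had 0 and 0 counts in control, 73 and 5 in D4, and 85 and 30 in D7. It passed the filter on low counts through its injured libraries alone. It was not called (edgeR adjusted p = 0.0673 at D4 and 0.0507 at D7), while DESeq2 and the exact test called it on both days.

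Of the remaining list, 2 genes are described. The heparin-binding growth factor gene Mdk rose 2.78-fold at D4 and 2.72-fold at D7, and the related Ptn rose 2.02-fold at D7 (log2 1.01 ± 0.12), the latter call being lost with DESeq2 (0.99) and without control b (0.87).

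Genes that followed each member most closely over the 6 libraries were found by the root mean square difference of centred log2 CPM, as a description of 6 points with no test. Nearest to Ngfr were Ucn2 (0.279), Ptprn (0.335) and Kcng1 (0.338), and nearest to Ntrk2 were Kcnk2 (0.0546), Auts2 (0.0732) and Sec22c (0.0814). Sort1 lay next to Trip11 (0.0379), Kbtbd3 (0.0472) and Tbl1x (0.0562). For Ntrk3 the nearest were AC097183.1 (0.156), Zfp300 (0.168) and LOC100911585 (0.188). Ntf3 was followed by Kcnh2 (0.194), Cytl1 (0.246) and Klhl4 (0.269). All of these were higher in control b than in control a and lowest in D7 a, a pattern that the choice by likeness itself favours. Around Bdnf lay Cr2 (0.311), Fcrla (0.397) and Ptprcap (0.411), each with 0 counts in control a and 4 to 9 in control b, which the same choice favours.

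The lncRNA table, with 22721 transcripts and 2694777 to 3043817 fragments a library, was searched for transcripts that overlapped a member or lay within 10 kb of it. There were 14, of which 2 lay near Ntf4, 4 at Ntrk2, 3 at Ntrk3 and 5 at Sort1, and none was listed at Bdnf, Ntf3 or Ngfr. Of these, 6 had enough counts to be tested. In the fit over 14077 lncRNAs, 10.1% were called at D4, 5.79% at D7 and 0.249% between the days. NONRATT002781.2, which lies inside Ntrk3 (Rnor_6.0 chr1:139990259-139991853), was the 1 called transcript of the 6. It had 672 and 877 counts in control, 261 and 270 in D4, and 391 and 384 in D7, and was lower on both days, with log2 changes of -1.71 ± 0.22 at D4 (edgeR adjusted p = 0.0105) and -1.10 ± 0.21 at D7 (adjusted p = 0.0454). The D4 call was lost without D4 a (-1.78) or D4 b (-1.69). The D7 call was lost without control b (-0.85), either D4 library (-1.12) or either D7 library (-1.11 and -1.10). Between the days edgeR called 0 of the 6 (1 at an unadjusted p under 0.05, 0 by DESeq2 and by the exact test).

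The 3 lncRNAs inside Ntrk3 summed to 810 and 1212 counts in control, 331 and 355 in D4, and 550 and 481 in D7, which follows the order of the Ntrk3 counts themselves. Whether the counting used strand is not given in the sources used here, so fragments of the gene and of a transcript inside it may have been counted on either, and the transcript is no independent readout of Ntrk3. At the other loci the transcripts with the most counts were NONRATT002637.2 near Ntf4 (271 counts in all), NONRATT015699.2 inside Sort1 (86), neither of them called, and NONRATT012748.2 at the end of Ntrk2 (33), which had too few counts to be tested. No other gene of the mRNA table overlapped the span of a member.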

How the data were processed

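Total RNA of sciatic nerve was depleted of ribosomal RNA and sequenced in pairs by the authors, giving 2 libraries for each of 3 groups. Per the labels and the study's methods, reads were mapped with HISAT2 2.0.4 to Rnor_6.0, transcripts were assembled with StringTie 1.3.0 and annotated against Ensembl and NONCODE, and the authors deposited whole fragment counts and FPKM values per gene and per lncRNA transcript. The deposited FPKM values follow the counts over each library's mRNA total with no further factor, and they were used to compare levels between genes only.

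Counts were tested with edgeR 4.0.16 in R 4.3.3: filterByExpr, TMM factors, 1 quasi-likelihood fit of all 6 libraries and Benjamini-Hochberg adjustment over all 15195 tested genes, or 14077 lncRNAs in a fit of their own. A call needed an adjusted p under 0.05 and a log2 change of at least 1. SE is the log2 change over the square root of F. The p-values rest on the spread between the 2 rats within a group, pooled over the 3 groups and moderated across genes. No fold was printed where both groups were at the floor of 3 counts.

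Alternatives were fits of 2 groups, the replicate letter as a block, DESeq2 1.42.0, the exact test, no or upper-quartile factors, other count filters, adjusted p alone, a tested 2-fold change and leaving out each library. The scripts were tested on simulated data.

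Every member was named. Of each signalling list, the text names at most 3 called genes in each direction and day, the largest changes among those whose injured libraries lie on 1 side of both controls, and of lncRNAs the called ones and the one with the most counts at each member. Likeness used the 3 nearest genes on log2 CPM with a prior count of 2. The members, signalling lists and cell type markers were chosen with earlier results of these data known. Promoter windows came from RefSeq (GRCr8). Of the listed symbols, Mmp3, Sorcs3 and Slitrk3 did not pass the filter on low counts, Grb2 matched more than 1 identifier, and Sorl1, Bex1, Bex3, Crkl, Slitrk4, Ntf5, Pecam1 and Myh4 had no row under those names. Some genes of the signalling lists are counted in the totals and are not reported here.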

Additional observations from a re-analysis of the deposited data

Results flagged for a closer look

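Of the members and the named signalling genes, 9 differed between D7 and D4 by the test of that difference itself (edgeR, adjusted p under 0.05 over all genes). Plau, Adam17 and Slitrk2 among them were named after their values were seen. Spry2, a listed gene not named above, passed as well (-0.56, edgeR adjusted p = 0.0453). Ngfr was lower at D7 than at D4 by a log2 difference of -0.83 (edgeR adjusted p = 0.0196), lower in each D7 library than in each D4 library. The difference was -0.87 without D4 a, -0.79 without D4 b and -0.88 without D7 a, and it no longer passed the p limit in any of these fits. Without D4 a or D4 b no gene of the whole table was called between the days. Serpine2 (-1.79), Plau (-0.86) and Gab2 (-0.68) were lower at D7 too. Slitrk1 (4.02), Slitrk5 (3.25), Slitrk2 (1.44), Adam17 (1.15) and Dok4 (0.75) were higher. Of these, Serpine2, Slitrk1, Slitrk5, Slitrk2 and Adam17 passed the 2-fold limit. Groups of 2 libraries are too small for a test of a library that lies far from the others.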

How the results depend on the processing

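Of 282 comparisons of a member's value with its value under an alternative, 251 kept direction and side of the threshold, 17 lost a call, 11 gained one and 3, none of them called, turned sign. The cause was not tested. Genes called numbered 3333, 2863 and 331 at D4, D7 and D7 against D4, and became 6715, 5705 and 710 on adjusted p alone and 1683, 1217 and 37 with the 2-fold change tested. D7 against D4 gave 521 with DESeq2 and 631 with the exact test, and 0 to 469 with 1 library left out. Members called at D4 were 5, and 3 with at least 10 counts in every library, which drops Bdnf and Ntf3, 2 with the 2-fold change tested and 2 to 6 with 1 library left out. At D7 they were 3, 1 with the 2-fold change tested and 2 to 5 with 1 library left out. Between the days adjusted p alone called 1, Ngfr (-0.83), and it called Sort1 at D4 (-0.95) and D7 (-0.68).

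Testing the 2-fold change ended the calls of Bdnf (3.02 and 3.28), Ntf3 (-2.56) and Ntrk3 (-1.81) at D4 or D7 and of Ntrk2 at D7 (-1.15). Without TMM factors Ntf3 at D4 (-2.28, adjusted p = 0.0583) and Ntrk2 at D7 (-0.86) lost the call, and Bdnf at D7 lost it in the fit of 2 groups (3.27, adjusted p = 0.0504). Ntf3 at D7 gained a call with the replicate block (-2.69, adjusted p = 0.0308), DESeq2 (-2.61), the exact test (-2.58) and no filter on low counts (-2.58), and the block changed no other member's call. The letters name libraries and pair no rats, and deviations from group means of same-lettered libraries correlated at 0.01 (control and D4), 0.19 (control and D7) and -0.13 (D4 and D7). With 1 library left out, log2 changes at D4 ranged from 2.06 to 5.74 for Bdnf, -3.07 to -1.79 for Ntf3, -2.20 to -1.30 for Ntrk3 and -1.04 to -0.87 for Sort1. At D7 they ranged from 2.32 to 5.997 for Bdnf, -4.51 to -1.74 for Ntf3 and -1.37 to -0.47 for Ntrk3. Between the days they ranged from -0.094 to 0.56 for Bdnf and -1.95 to 0.78 for Ntf3. Where leaving out a library leaves a group with 1, that library is assumed to vary like the others.

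Called lncRNAs at member loci were 1 at D4, and 2 with DESeq2, the exact test or at least 10 counts, 0 with the 2-fold change tested and 0 to 2 with 1 library left out. At D7 the 1 call became 0 in the fit of 2 groups, with the replicate block, the exact test, no TMM factors, no filter and the 2-fold change tested, and 0 to 1 with 1 library left out.

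Uncalled values of other genes also turned sign with 1 library left out: Lingo1 at D4 (-0.139 to 0.202), Slitrk5 at D7 (-0.058 to 0.331), Sorcs2 (-0.176 to 0.064), Mdk (-0.175 to 0.129) and Mmp7 (-0.128 to 3.85) between the days, and among the lncRNAs NONRATT002637.2 (-0.189 to 0.558), NONRATT002783.2 (-1.55 to 0.637) and NONRATT015699.2 (-1.74 to 0.134) at D7 and NONRATT015699.2 (-0.679 to 1.21) between the days. The members with the fewest fragments were Bdnf, Ntf3 and Ntf4 (320, 222 and 20 in all). In Bdnf (control and D7) and Ntf3 (control and D7) the libraries of a group differed beyond the exact Poisson intervals of their counts. These counts were not scaled to library size.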
